A study of Mus musculus with 10 samples.

Results

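The 5p arms of mouse miR-6896 to miR-7094 are the microRNAs cut from the 5′ side of a run of hairpins that miRBase numbered together and that are annotated mostly as mirtrons. They were taken from the array by name alone, as every probe named for a mouse miRNA of these numbers, with or without a letter or copy number, and ending in 5p. This gave 202 members of the 1892 miRNAs on the array, each printed as 2 spots. The number of a miRNA reflects when it was registered, not a family, so the members share a kind of origin and not a sequence or a target.

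The study hybridized mouse RNA to 10 one-colour miRNA arrays, 5 titled T-C cell, from a source given as Col-/-, and 5 titled control cell, from a source given as Control Col. The labels describe liver material, marked as sle liver and grown as a mouse liver cell culture, from males whose age is not stated, and the treatment is 0.5 mg of an agent called TN-CF for 100000 T-C cells in a dish over 24 hours, set against a control. The series' design text writes the agent as TB-CF, and the labels do not spell out TN-CF, T-C, Col or sle. The source label and the treatment differ together between the groups and cannot be told apart. The file headers also number the arrays, with every control cell array between T-C cell replicate 1 and the other 4 T-C cell arrays. The headers do not say what the numbers count, so a batch along them and the group cannot be told apart, and no value within a batch could be had. Whether the 5 arrays of a group stand for different animals or dishes is not stated, so p-values measure only the spread between these arrays, which may be technical. Total RNA, 1 µg per sample, was given a poly(A) tail and a Cy3-stained tag, and the deposited value of a spot is its median brightness.

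A mirtron is a short intron that folds into a hairpin once it has been spliced out. It reaches Dicer without the cut by Drosha that starts most other miRNAs, so the ends of its hairpin are set by the splice sites. In a tailed mirtron only one end of the hairpin is a splice site, and the extra piece of intron on the other side is trimmed away. Splice acceptors end in a run of pyrimidines followed by AG, which places C and U in the 3p arm and, opposite them in the stem, G and A in the 5p arm. Most mirtrons are found at low levels in mammalian tissues, and few have a known role.

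The sequences that the results below turn on are given here with the seed, bases 2 to 8, in capitals. Sequences and positions are from the RefSeq table on build GRCm38.p6. The arms run 5′ to 3′ and were chosen as follows: the first 7 are the members among the 8 brightest that the table holds, the next 3 had a large estimated increase or decrease, and the last 2 belong to hairpins whose arms differed between the groups.
miR-7028-5p: uGGGCUGAggcuugggucaggag
miR-7082-5p: uACGGGCAggaggaggggagg
miR-7045-5p: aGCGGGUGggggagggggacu
miR-6937-5p: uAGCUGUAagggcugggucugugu
miR-6944-5p: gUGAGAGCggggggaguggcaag
miR-7047-5p: uGAGGGAGgagggcugggucuga
miR-6931-5p: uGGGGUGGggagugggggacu
miR-7081-5p: aGAGGAGGgugcucggccggggauua
miR-7033-5p: uCUCCAGGagucugaggggcagg
miR-6922-5p: uGUGGGAGgggacuguagagagg
miR-7056-5p: uGUGGAGGaggacagagagguu
miR-6942-5p: uAGGAGGAggggaacauuugc
Runs of G and A fill most of these arms. The RefSeq table held 177 of the 202 members, and all 177 of its sequences equalled those on the array. For the other 25 members, miR-6981-5p, miR-6970-5p, miR-6957-5p and miR-6979-5p among them, no sequence is shown.

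The members were set against gene models, and nearly all that could be placed lay at a splice site. A mirtron is defined by splice sites at its hairpin ends, so this describes the annotation and does not test it. Where several introns held a hairpin, the intron with the nearest end was used, for members and other miRNAs alike. Hairpins of 172 members were placed on GRCm38 with GENCODE M21: 163 lay within an intron, 7 overlapped an exon and 2 lay outside genes. An end of the hairpin fell within 5 bases of an end of the intron for 162 of the 172, or 94.2%. The same was true of 64 of the 1158 other miRNAs of the array that could be placed, or 5.53%. The usual form was a hairpin at the acceptor alone, in 146 members, and for 157 members the hairpin ended exactly on the last base of the intron. Both ends of the intron met the hairpin in 12 members and the donor alone in 4. In 14 members the 5p arm began on the first base of the intron, and 13 of these began with GU, the donor dinucleotide. Introns ran from 66 to 36269 bases with a median of 479, so most members were of the tailed kind with a stretch of intron before the 5p arm.

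Host genes of the brightest members were of many kinds. miR-7028-5p lies at chr5:114719515-114719537 on the plus strand, in an intron of 1118 bases of Tchp, which encodes the keratin-binding protein trichoplein. miR-7082-5p lies at chr9:21075563-21075583 on the minus strand in an intron of 88 bases, short enough for the hairpin to meet both splice sites, that Raver1, encoding an RNA-binding protein, shares with the gene model Gm38431. miR-7045-5p, at chr6:125097029-125097049 on the plus strand, is in an intron of Chd4, the ATPase of the NuRD chromatin remodeller. miR-6944-5p, at chr13:55477754-55477776 on the minus strand, is in an intron of 96 bases of the drebrin gene Dbn1 that also meets the hairpin at both ends.

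The other members listed by sequence lay at acceptors. miR-6937-5p was placed at chr12:28679325-28679348 on the plus strand in Adi1, an enzyme gene of methionine salvage. miR-6931-5p was placed at chr11:102999896-102999916 on the minus strand in Dcakd. miR-7081-5p was placed at chr9:20914134-20914159 on the minus strand in Dnmt1, the maintenance DNA methyltransferase, and miR-7033-5p at chr5:135383783-135383805 on the minus strand in Pom121, a nuclear pore gene. miR-6922-5p was placed at chr11:60202300-60202322 on the minus strand in Srebf1, a transcription factor gene of lipid synthesis. The array does not measure host transcripts, so the level of a member cannot be set beside that of its host.

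Most members gave a signal near that of a spot with no probe. A miRNA was counted as detected on an array where its 2 spots averaged more than a limit, set at 3 SD over the mean of the 16 blanks of the same array. The numbers detected of 202 were 67, 25, 4, 42 and 59 on T-C cell replicates 1 to 5 and 32, 20, 22, 61 and 154 on control cell replicates 1 to 5. The ranges overlapped, with a median of 42 for T-C cell against 32 for control cell. As shares these medians were 20.8% and 15.8% of the members, against 24.8% and 23.9% of all miRNAs on the array.

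2 arrays stood apart in their blanks. On T-C cell replicate 3 the blanks had a mean of 223 and an SD of 83.4, which put the limit at 474, and 1.98% of the members passed it against 9.99% of all miRNAs. On control cell replicate 5 they had a mean of 54.9 and an SD of 3.01, with a limit of 64.0, and 76.2% of the members and 69.5% of all miRNAs passed. The limits of the other 8 arrays lay between 133 and 319. No member fell below the blank mean on control cell replicates 4 and 5. Of the 202, 153 did on T-C cell replicate 2, 130 on control cell replicate 2 and 112 on control cell replicate 3. On the remaining arrays 15 to 72 did. With T-C cell replicate 3 and control cell replicate 5 left aside, 25 to 67 members were detected on a T-C cell array and 20 to 61 on a control cell array.

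**Figure D1:**
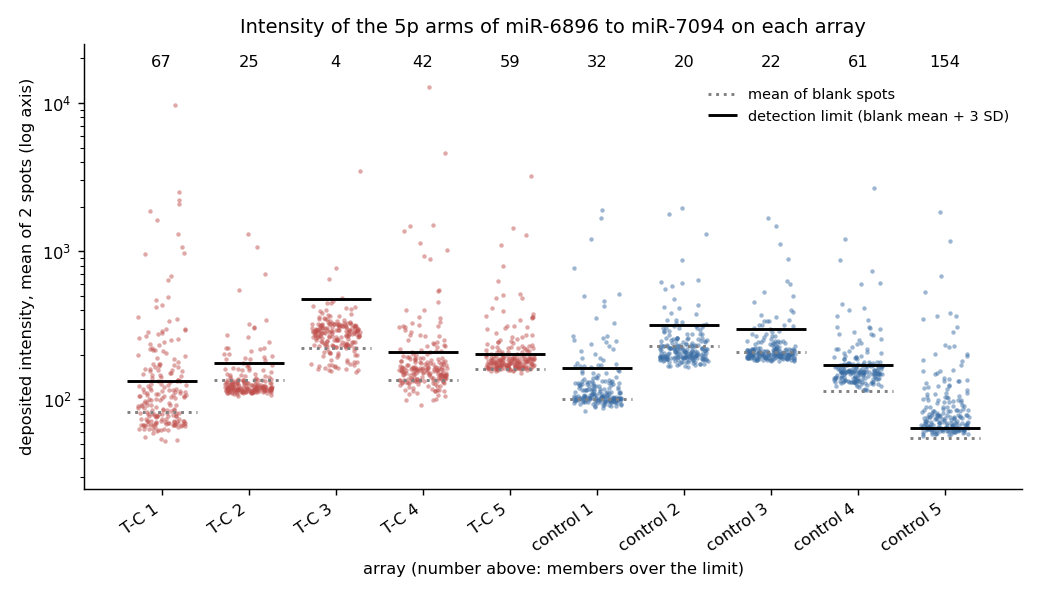
Deposited intensity (mean of 2 spots, log axis) of the 202 members on each of the 10 arrays, with T-C cell arrays in red and control cell arrays in blue. The dotted line is the mean of the blank spots and the solid line the detection limit of that array, and the number at the top counts the members above it, from 4 on T-C cell replicate 3 to 154 on control cell replicate 5.

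Counted across arrays, 47 members were detected nowhere, 69 on 1 array and 4 on all 10. The 4 detected everywhere were miR-7028-5p, miR-7082-5p, miR-6981-5p and miR-7045-5p. Detection on at least 5 of the 10 arrays, the condition for a test, was met by 39 members, or 19.3%, against 25.9% of the rest of the array and 44 of the 201 3p arms of the same block, or 21.9%. Among the 39, detection was on more T-C cell arrays for 11, on more control cell arrays for 18 and equal for 10. Hairpins at a donor or at both ends were tested in 4 of 16 cases, or 25%, and hairpins at the acceptor alone in 30 of 146, or 20.5%.

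The brightness of different probes depends on their binding as well as on the amount of RNA, so the order of members by brightness is not an order of abundance. miR-7028-5p was the brightest member and had the widest spread. Its deposited intensities were 9717, 704, 3495, 12819.8 and 1285 on T-C cell replicates 1 to 5 and 1678, 1792, 1109, 734 and 351 on control cell replicates 1 to 5. T-C cell replicates 1, 3 and 4 lay above all control cell arrays, while T-C cell replicates 2 and 5 lay within their range. After log2(intensity + 50) and cyclic loess normalization between arrays, the mean level was 11.67 ± 1.51 (SD, n = 5) in T-C cell and 10.02 ± 0.91 (SD, n = 5) in control cell. The difference was 1.65 (SE 0.65), a fold of 3.13 with a 95% interval on the log2 scale from 0.22 to 3.07, and it did not pass in limma over 476 tested miRNAs (adjusted p = 0.175). Without T-C cell replicate 2 the difference was 2.14 and the adjusted p by limma 0.0498, just past the threshold of 0.05. With array weights in limma it was 0.97, and without both T-C cell replicate 3 and control cell replicate 5 it was 1.18, with adjusted p values of 0.453 and 0.553.

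miR-7082-5p, the mirtron with the hairpin at both splice sites, was second in brightness and showed no difference larger than its spread. Its intensities were 2489, 1311, 766, 4581 and 3201 on the T-C cell arrays and 1909, 1953, 1665, 2671 and 1841 on the control cell arrays, in order of replicate. The T-C cell arrays held both its lowest and its highest values, on replicates 3 and 4. The log2 difference was -0.01 (SE 0.34) with a 95% interval from -0.74 to 0.73, and its sign turned under 6 of the other settings tried and without 5 of the 10 arrays in turn.

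miR-6981-5p and miR-7045-5p were detected on all arrays with a narrow spread in control cell. The intensities of miR-6981-5p were 1299.9, 1072, 651, 1511 and 1429 on the T-C cell arrays and 1209, 1297, 1478, 1214 and 1175 on the control cell arrays. Those of miR-7045-5p were 1621, 543, 486, 1474 and 1095 and 774, 867, 882, 871 and 683. In both cases all 5 control cell values lay inside the T-C cell range. The log2 differences were -0.23 (SE 0.18, 95% interval -0.62 to 0.17) for miR-6981-5p and 0.10 (SE 0.21, 95% interval -0.35 to 0.55) for miR-7045-5p. Neither passed in limma, with adjusted p values of 0.621 and 0.878.

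The next 4 by brightness were miR-6937-5p, miR-6944-5p, miR-7047-5p and miR-6931-5p, each detected on 9 of 10 arrays. Their mean intensities over all arrays were 678, 643, 629 and 618. The log2 difference was 0.32 (SE 0.31) for miR-6937-5p, 0.03 (SE 0.23) for miR-6944-5p, 0.41 (SE 0.31) for miR-7047-5p and 0.17 (SE 0.20) for miR-6931-5p. All 4 had their lowest intensity of the T-C cell arrays on replicate 2 and their highest on replicate 1 or 4.

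**Figure D2:**
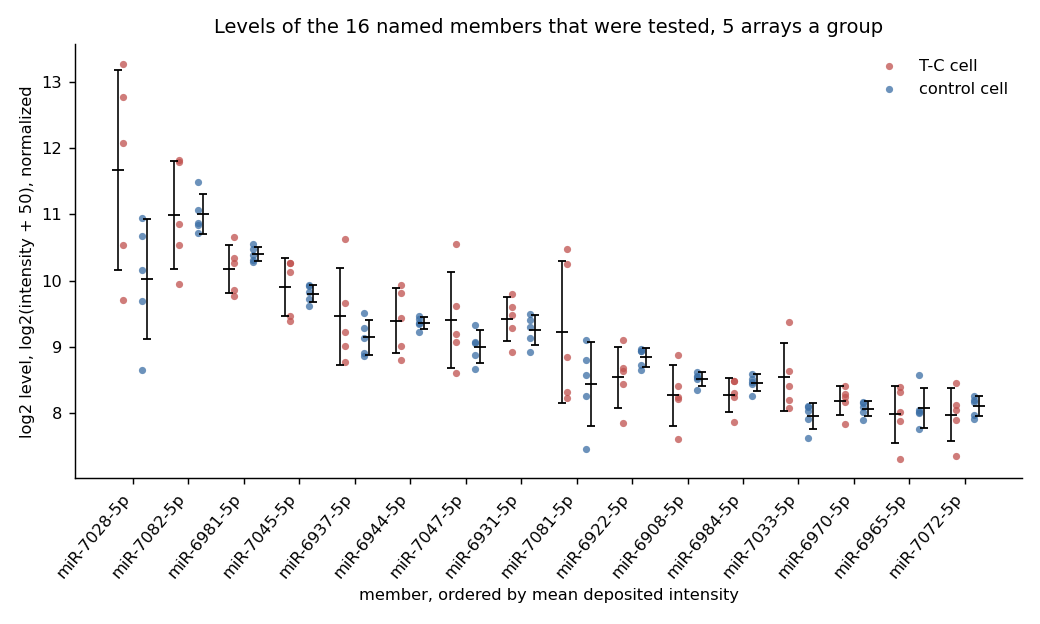
Normalized log2 levels of the 16 named members that were tested, ordered by mean intensity, with T-C cell arrays in red and control cell arrays in blue (5 points each), and the mean with its SD as a bar beside the points. The groups overlap for every member shown, and the points of T-C cell spread wider than those of control cell in all 16, as for miR-7028-5p with SDs of 1.51 and 0.91.

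Across the block, no member passed the test between groups. Of the 39 tested, limma called 0 at an adjusted p under 0.05, with 0.131 as the lowest adjusted p, while 37 of all 476 tested miRNAs, or 7.77%, were called. At an unadjusted p under 0.05, limma gave 2 members, miR-7028-5p and miR-7033-5p, or 5.13%, against 18.5% of all tested. The array-wide count itself rested on single arrays: it fell to 1 without T-C cell replicate 4, control cell replicate 2 or control cell replicate 3, to 3 without control cell replicate 1 or 5, and to 12 without T-C cell replicate 1. When all 1892 miRNAs were tested without a filter, limma gave 4 of 202 members an unadjusted p under 0.05, or 1.98%, against 6.61% of the array, and called 0 members, against 0.0529% of the array.

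Groups that did not overlap were as rare. None of the 39 tested members had 5 values of one group above all 5 of the other, against 3.99% of all tested miRNAs. Of the whole 202, 1 did, miR-6910-5p, against 1.48% of all miRNAs. It was detected on 1 array, lay in an intron of Ptbp1, and its log2 levels ran from 7.36 to 7.64 in T-C cell and from 7.64 to 7.79 in control cell, a difference of -0.15. It is named because it is the single such member, after its values were seen.

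The estimates were close to 0 for most members, and the intervals say how close. Of the 39 differences 24 were above 0 and 15 below, and 30 were smaller than 0.2 on the log2 scale. The 95% interval lay within a 2-fold change in either direction for 34 of the 39, or 87.2%, against 390 of all 476 tested miRNAs, or 81.9%. It lay within 1.5-fold for 27. The 5 members with wider intervals were miR-7028-5p, miR-7081-5p, miR-7033-5p, miR-7047-5p and miR-6937-5p, and for each of these a 2-fold rise in T-C cell lay inside the interval. With the blank mean subtracted, miR-7033-5p was 1.74, miR-6922-5p -0.68, miR-6908-5p -0.66 and miR-6965-5p -1.29, each larger in size. By contrast miR-6937-5p was 0.22 and miR-7047-5p 0.36, each smaller. The intervals therefore describe the intensity and do not bound the change in RNA.

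Over all 202 members, with no filter, 99 differences were above 0 and 103 below. Their median was -0.00 on the log2 scale with quartiles of -0.05 and 0.05, against a median of 0.00 over all 1892 miRNAs. Values near the blank are compressed by the blank signal left in and the added 50, so these medians say little of undetected members.

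**Figure D3:**
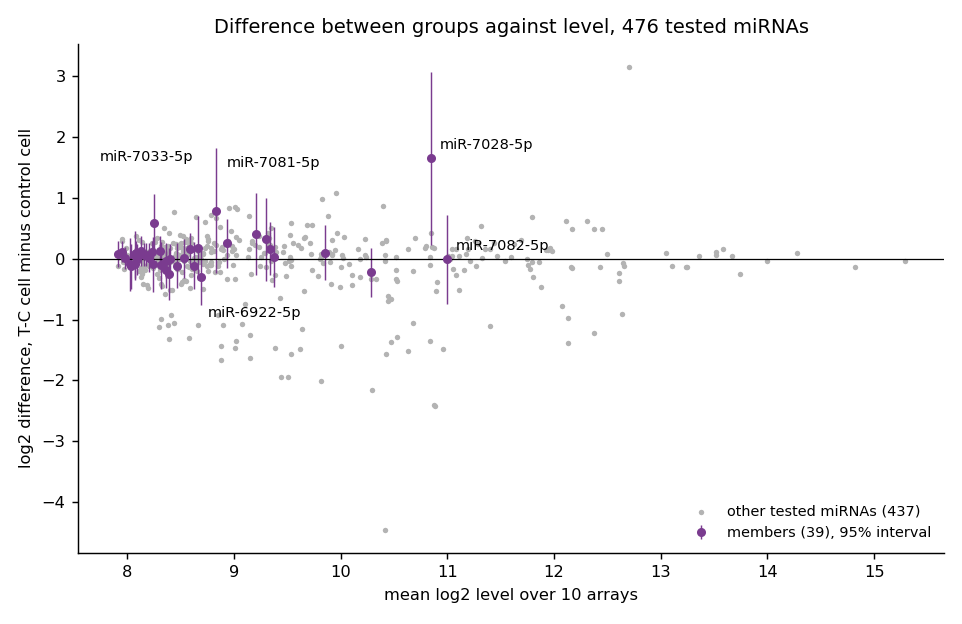
Log2 difference between T-C cell and control cell against mean log2 level for the 476 tested miRNAs, with the 39 members in purple with 95% intervals from limma and the other 437 in grey. The members lie along 0 apart from miR-7028-5p at 1.65, miR-7081-5p at 0.79 and miR-7033-5p at 0.59, whose intervals are wide.

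miR-7081-5p, from the Dnmt1 intron, had the second largest estimate. Its intensities were 1855, 201, 363, 1363 and 241 on the T-C cell arrays and 328, 475, 339, 235 and 98.8 on the control cell arrays. T-C cell replicates 1 and 4 stood above all others and the remaining T-C cell arrays lay among the control cell arrays. The log2 difference was 0.79 (SE 0.47, 95% interval -0.24 to 1.81) and did not pass in limma (adjusted p = 0.464). Leaving out T-C cell replicate 1 brought it to 0.44, leaving out replicate 4 to 0.51, and array weights to 0.28. Its 2 spots disagreed on T-C cell replicate 3, where one was 3.37 times the other.

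miR-7033-5p, from the Pom121 intron, had the lowest p of the members. It was detected on only 5 of 10 arrays, and its intensities were 680.4, 163, 306, 305 and 354 on the T-C cell arrays and 139.7, 234, 245, 196 and 95.9 on the control cell arrays. After normalization its control cell levels of 7.63 to 8.10 overlapped the T-C cell levels of 8.08 to 9.38 at their lower end. The log2 difference was 0.59 (SE 0.22, 95% interval 0.12 to 1.06, limma adjusted p = 0.131). The adjusted p by limma ranged from 0.0743 to 0.486 over the other settings in which it was tested.

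The largest decreases were smaller. miR-6922-5p, from Srebf1, had intensities of 245, 272, 281, 400.4 and 483 on the T-C cell arrays and 356, 434, 454, 341 and 283 on the control cell arrays, and differed by -0.30 on the log2 scale (SE 0.21, limma adjusted p = 0.573). miR-6908-5p, in an intron of the pyridoxal kinase gene Pdxk, differed by -0.25 (SE 0.19), and miR-6984-5p, in an intron of the mitochondrial ribosomal gene Mrpl21, by -0.18 (SE 0.14). miR-7072-5p, in an intron of Nlrc5, an activator of MHC class I genes, differed by -0.13 (SE 0.17). Without T-C cell replicate 1 the first 3 became -0.12, -0.07 and -0.07, and without T-C cell replicate 3 miR-7072-5p became 0.02. None passed, and each of the 4 had at least 1 T-C cell array above the mean log2 level of control cell.

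Just inside the condition for a test were 9 members detected on 5 arrays, and just outside it 9 detected on 4. The 3 brightest of each were named, so their brightness was part of the choice. Inside the condition these were miR-7033-5p, miR-6970-5p and miR-6965-5p, with mean intensities of 272, 228 and 219. Outside it, on 4 arrays each, were miR-7034-5p, miR-6957-5p and miR-6979-5p, with mean intensities of 234, 222 and 202. Their differences were 0.12 for miR-6970-5p and -0.09 for miR-6965-5p inside, and 0.22, 0.12 and 0.13 for the 3 outside.

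T-C cell arrays spread more than control cell arrays. The SD of the log2 level was larger in T-C cell for 34 of the 39 tested members, or 87.2%, and for 333 of the 437 other tested miRNAs, or 76.2%. The median SD of the 39 was 0.31 for T-C cell against 0.15 for control cell. Of the 39, the highest of the 10 arrays was T-C cell replicate 1 for 11, replicate 4 for 8 and replicate 5 for 12. Among the 437 others these arrays were highest for 112, 53 and 29, or 25.6%, 12.1% and 6.64%. The lowest array of the 39 was T-C cell replicate 1 for 12 and control cell replicate 5 for 10. T-C cell replicate 1 held both extremes, high for miR-6937-5p, miR-7047-5p, miR-7081-5p and miR-7033-5p and low for miR-6922-5p, miR-6908-5p and miR-6984-5p.

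miR-6937-5p and miR-7047-5p moved together across the arrays. They share their longest common stretch, 13 bases, in the 3′ part of each arm, which is in capitals here.
miR-6937-5p: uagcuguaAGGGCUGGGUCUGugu
miR-7047-5p: ugagggaggAGGGCUGGGUCUGa
The stretch covers positions 9 to 21 of miR-6937-5p and 10 to 22 of miR-7047-5p, counted from the 5′ end, and stands outside both seeds, which differ. No other miRNA on the array holds it. The intensities of miR-6937-5p were 2225, 301, 363, 921 and 515 on the T-C cell arrays and 513, 636, 527, 411 and 364 on the control cell arrays. Those of miR-7047-5p were 2065, 263, 384, 882 and 506 and 427, 557, 496, 399 and 308. The ratio of the first to the second stayed between 0.944 and 1.2 on all 10 arrays. Without T-C cell replicate 1, the brightest for both, their differences of 0.32 and 0.41 became 0.00 and 0.09.

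As a description, the log2 levels of the pair had a Pearson coefficient of 0.99 and a Spearman coefficient of 0.94 over the 10 arrays, the highest Pearson coefficient of the 741 pairs of tested members. These points share their arrays, and T-C cell replicate 1 is the highest for both. The 25 pairs that share 9 bases or more had a median Pearson coefficient of 0.19. Pairs that share 4 to 8 bases had medians from 0.15 to 0.31, and those that share 2 and 3 had 0.08 and -0.05. The 4 other pairs with 11 or 12 shared bases lay between -0.26 and 0.17, while some pairs with 9 or 10 lay much higher. Among these, miR-6970-5p had 0.82 with miR-7046-5p, 0.85 with miR-7047-5p and 0.78 with miR-6937-5p. Whether both probes bind the same RNA was not tested.

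The 5p arms were rich in G and poor in C. Their median share of G was 43.7%, against 27.3% over all miRNAs and 14.3% in the 3p arms of the block, and their median share of C was 13.6% against 40.9% in the 3p arms. The 39 tested members had a median G share of 50%, and the 163 others 42.9%. Across the 202 members the mean log2 level had a Pearson coefficient of 0.42 and a Spearman coefficient of 0.43 with the share of G. With the share of U they were -0.27 and -0.40. The relation to G was not seen beyond these members. Over all 1892 miRNAs the coefficients were -0.05 and -0.00 for G and -0.09 and -0.18 for U. In the 201 3p arms they were -0.22 and -0.13 for G and -0.14 and -0.20 for U. For G plus C they were 0.32 and 0.41 in the members, 0.04 and 0.23 in the 3p arms, and -0.02 and 0.17 over all miRNAs. Among the 163 members not tested, near the blanks, those with G were 0.34 and 0.33. Members share arrays, blanks and labelling, so these coefficients are descriptions.

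The motif GGGG, read on the miRNA strand alone, was in 76 members, 21 of them tested, and absent from 126, 18 of them tested. GGAG, which can overlap it, was in 94 members, 28 of them tested, and absent from 108, 11 of them tested. GGGG occurs in 10.8% of all miRNAs on the array and GGAG in 14.1%. Over the whole array 27.5% of the miRNAs with GGGG and 28.5% of those with GGAG were tested, against 25.2% of all. GGAG was not among the motifs planned, so its counts are only a description.

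The difference between groups showed little relation to the share of G. Over the 202 members its coefficients with that share were 0.09 (Pearson) and 0.03 (Spearman). For C they were -0.05 and -0.09, for A -0.10 and -0.00, and for U 0.06 and 0.07. Cut at the median share of G, the 101 members with less G had a median difference of -0.00 with 10 tested, and the 101 with more G a median of -0.00 with 29 tested. Among the 39 tested members the coefficients with the share of U were 0.35 and 0.42, and with the share of A -0.31 and -0.35. In the 3p arms the coefficients over all 201 were larger in size for every base: 0.22 and 0.16 for G, -0.21 and -0.21 for C, -0.39 and -0.30 for A, and 0.28 and 0.29 for U. Over all 1892 miRNAs they were 0.19 and 0.14 for G and -0.27 and -0.26 for C.

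The motif ACC had been noticed in an earlier analysis of these data, in miRNAs lower in T-C cell, so its counts are given only as a description. It was in 30 of the 37 miRNAs called on the whole array and in 124 of the 476 tested, but in 0 of the 39 tested members. The 23 members that hold it were all below the condition for a test, and their median difference was -0.02 with 7 above 0 and 16 below. In the 3p arms 72 held it, with 17 above 0, 55 below and a median of -0.06. The 129 3p arms without it had 56 above 0, 73 below and a median of -0.01. Over the whole array 388 miRNAs held it, or 20.5%, against 11.4% of the members. Of these 388, 146 were above 0 and 242 below, with a median of -0.02.

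**Figure D4:**
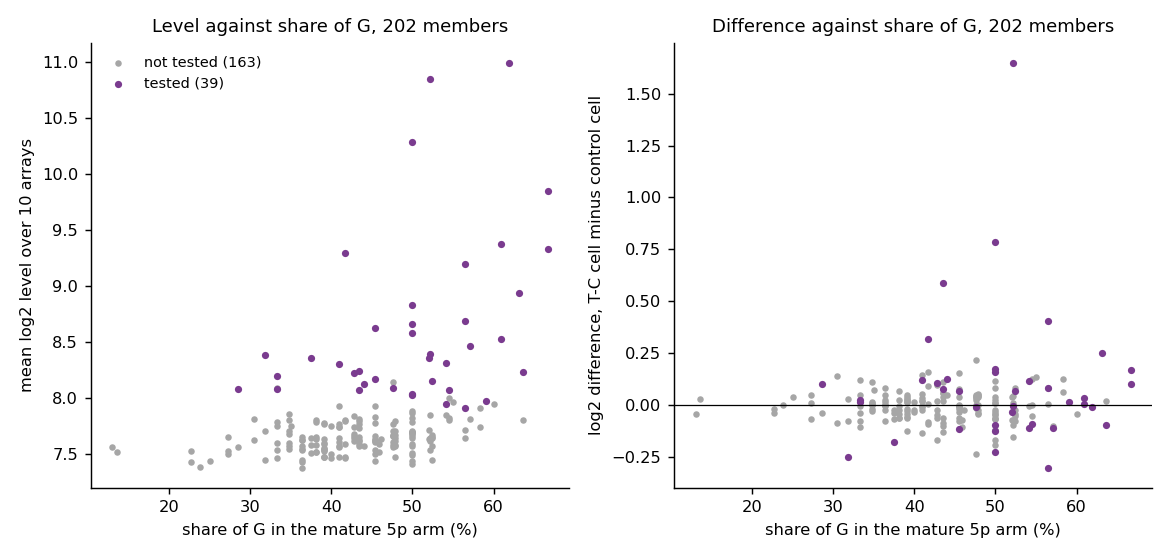
Share of G in the mature arm of the 202 members (x axis, percent) against the mean log2 level over 10 arrays (left) and the log2 difference of T-C cell minus control cell (right), with tested members in purple and the others in grey. In these members the level is higher at a higher share of G (Pearson coefficient 0.42, against -0.05 over all 1892 miRNAs). The difference lies around 0 across the shares (0.09).

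The 3p arms of the same hairpins gave calls where the 5p arms gave none, and 12 hairpins allowed a comparison within a hairpin. Of 200 hairpins with both arms on the array, both arms were tested in 12, the 5p arm alone in 27, the 3p arm alone in 32 and neither in 129. Of the 44 tested 3p arms limma called 9 at an adjusted p under 0.05, all lower in T-C cell, against 37 of all 476 tested miRNAs, or 7.77%. These calls are part of the array-wide count that rested on single arrays. The level of the 5p arm minus that of the 3p arm was compared between groups by limma over the 68 hairpins of the array with both arms tested, a test added after the data were seen. It called 10 of the 68, or 14.7%, and 2 of the 12 hairpins of the block, miR-7056 and miR-6942, a share near that of the array. The 3p arms of these 2 were already among the 9 called (limma adjusted p 0.0348 and 0.0393). The arm difference uses the same 3p values again, so the 2 calls are not separate evidence. Probes of unlike composition lie behind every such difference, so it shows unequal change of 2 spots and no more.

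The 3p arms of the pair are shown with ACC in capitals, as neither of their 5p arms, given above, holds it.
miR-7056-3p: ccucACCugucucccACCacag
miR-6942-3p: uuaugguucucuccACCucuca
miR-7056 lies in an intron of Ptpn5, a phosphatase gene of the nervous system, with its 5p arm at chr7:47083203-47083224 on the minus strand. miR-6942 lies in an intron of the zinc-finger gene Zkscan3, with its 5p arm at chr13:21396613-21396633 on the minus strand.

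In miR-7056 the 3p arm was the brighter arm and the lower one in T-C cell. miR-7056-5p gave 493, 242, 336, 402 and 376 on the T-C cell arrays and 252, 305, 319.7, 306 and 233 on the control cell arrays. miR-7056-3p gave 719.7, 1266, 994, 782 and 689 and 2731, 2722, 1690.2, 1995 and 2047. The 3p values of the groups did not overlap, while the 5p values did. The log2 difference was 0.16 (SE 0.12) for the 5p arm and -1.37 (SE 0.28) for the 3p arm. The log2 level of the 5p arm minus that of the 3p arm was -1.13 in T-C cell against -2.66 in control cell, a change of 1.53 (SE 0.32, limma adjusted p = 0.0229), and the groups did not overlap.

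In miR-6942 the 3p arm was again the lower one in T-C cell. miR-6942-5p gave 289, 220.2, 307, 285 and 246 on the T-C cell arrays and 169.7, 260.3, 283, 210.4 and 158 on the control cell arrays. miR-6942-3p gave 268, 275, 400.4, 311 and 364 and 906, 1274, 779.5, 406 and 735. Every control cell intensity of the 3p arm was above every T-C cell intensity, by little at the nearest pair, and after normalization T-C cell replicate 3 at 9.11 passed control cell replicate 4 at 8.90. The log2 differences were 0.11 (SE 0.09) and -1.26 (SE 0.31), and the change in the arm difference was 1.37 (SE 0.32, limma adjusted p = 0.0229), with groups that overlapped. Both calls rested on single arrays. That of miR-7056 was lost without T-C cell replicate 4, control cell replicate 1 or control cell replicate 2 (limma adjusted p 0.0573 to 0.0719), and that of miR-6942 without any of these or without control cell replicate 3 or 5.

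miR-6931 had a like pattern, with a change in arm difference that did not pass. The 5p arm differed by 0.17, and the 3p arm, itself among the 9 called, by -1.11 (limma adjusted p = 0.0418). The arm difference changed by 1.28 (SE 0.42, limma adjusted p = 0.0606). The other 9 hairpins had arm differences between -0.45 and 0.60, none past the threshold. miR-6917-3p, one of the lower 3p arms at -1.28, could not be set beside its partner, since miR-6917-5p was detected on 1 array. The 3p partner of miR-7028-5p was detected on 2 arrays and not tested, so the arms of that hairpin could not be compared.

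**Figure D5:**
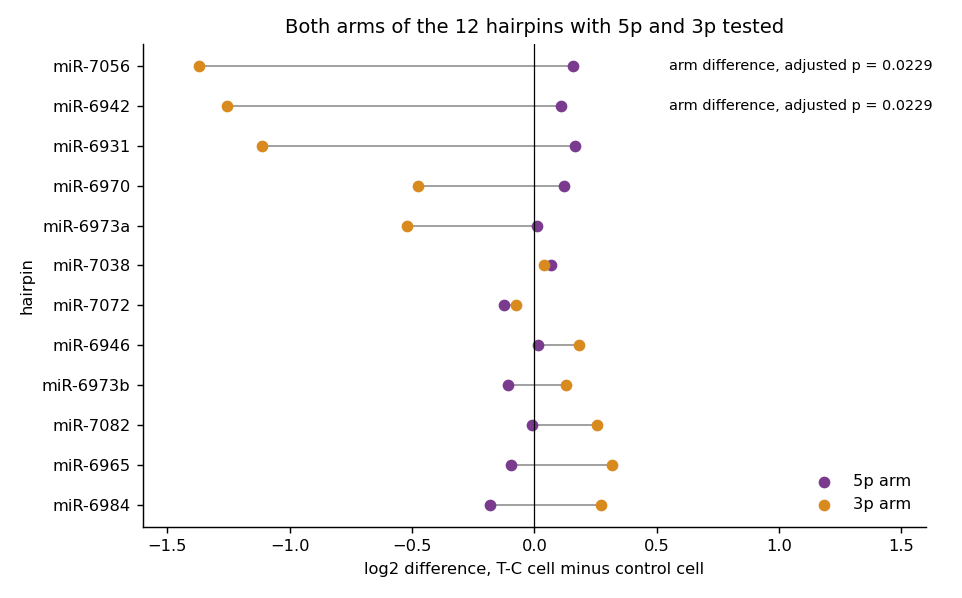
Log2 difference of T-C cell minus control cell for the 5p arm (purple) and the 3p arm (orange) of the 12 hairpins with both arms tested, ordered by the gap between the arms. The 5p arms lie between -0.18 and 0.17, and the 3p arms of miR-7056, miR-6942 and miR-6931 lie below -1, with the limma adjusted p of the arm difference printed where it is under 0.05.

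Seeds were rarely shared. The 202 members had 179 distinct seeds, of which 18 were shared by 41 members. Among members with a RefSeq entry GUGGGAG was in miR-6922-5p, miR-6993-5p and miR-7008-5p, of which 2 were tested. miR-705, outside the block, has this seed too. It was detected on 9 arrays, with a difference of 0.34 where that of miR-6922-5p was -0.30, and neither passed. miR-7016-5p shares AGGGAGG with miR-149-3p, which was detected on all 10 arrays with a difference of -0.11, and the member itself differed by -0.11.

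Known mirtrons outside the block were also low or little changed in estimate. miR-1224-5p was detected on 9 arrays and differed by 0.07 (SE 0.20), miR-1224-3p by -0.13 (SE 0.08) and miR-877-3p by 0.21 (SE 0.38), and none passed in limma. miR-877-5p and both arms of miR-702 were each detected on 1 array.

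Markers of cell types were read for the whole array. miR-122-5p, the defining hepatocyte miRNA, was detected on 1 of 10 arrays although the label names liver, while miR-192-5p and miR-194-5p, which are also abundant in gut and kidney, were detected on all. The 4 leukocyte miRNAs on the array had a summed intensity of 1837 to 4721 on T-C cell arrays and 1496 to 1993 on control cell arrays, and miR-150-5p, a lymphocyte miRNA, was higher in T-C cell by 0.86 on the log2 scale (limma adjusted p = 0.0418). That call was lost without T-C cell replicate 1, 4 or 5 or control cell replicate 1, 2, 3 or 5 (limma adjusted p 0.0809 to 0.105). With all arrays kept it was also lost under median centring, no normalization, blank subtraction, the replicate block and all miRNAs tested (limma adjusted p 0.0626 to 0.887). It held with quantile normalization, other added constants, detection on all arrays and array weights. The other leukocyte miRNAs of the list did not pass (limma adjusted p 0.365 to 0.589). The summed intensities of all 6 lists, leukocyte included, overlapped between groups. Fewer cells of a type and less RNA per cell cannot be told apart in such samples, and the part of leukocyte RNA in the levels of miR-7028-5p or other members was not tested. Arrays correlated at 0.814 to 0.982, and the 2 spots of a member above the limit had a median ratio of 1.07, against 1.10 for all miRNAs.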

How the data were processed

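Deposited files gave the median intensity of each spot on a linear scale, per the file headers, with no background column and no scaling between arrays by the authors that a header records. No source used here names the image software or the miRBase release. Groups and replicate numbers came from the titles. The 2 spots of each miRNA were averaged, converted to log2(intensity + 50), normalized by cyclic loess over all 1892 miRNAs and compared with limma 3.58.1 in R 4.3.3 (two-sided, lmFit then eBayes with trend). Benjamini-Hochberg adjustment covered the 476 miRNAs detected on at least 5 of 10 arrays. Control cell is subtracted from T-C cell in every difference, and the threshold was an adjusted p of 0.05. With 5 arrays a group, their number limits the precision. Only the limma fit and the adjustment were tried on simulated data, with independent noise around the normalized levels of the tested miRNAs. The simulation did not cover the filter, the added 50, the normalization or the wider spread in T-C cell. Hairpins were placed on GENCODE M21 and RefSeq GRCm38.p6 (the files name no build). The place of 1 named member is not reported here.

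The members and lists were chosen with earlier results of these data known. Named members were any called, the 8 brightest, the 5 largest estimated increases and decreases among tested members, any tested without overlap, and the 3 nearest the detection filter on each side, besides the 3p arms of these hairpins and 3 other mirtrons. Alternatives were other normalizations, added constants, blank subtraction, filters, array weights, a replicate block and each array left out.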

Additional observations from a re-analysis of the deposited data

How the results depend on the processing

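No member was called by limma under any of the 10 other settings that kept all arrays, nor without both T-C cell replicate 3 and control cell replicate 5, a choice made after seeing the data; leaving out 1 array at a time gave 0 to 1, the 1 being miR-7028-5p (2.14) without T-C cell replicate 2. The count over the whole array was less stable: 37 miRNAs became 48 with quantile normalization, 44 with array weights, 26 with the replicate block, 14 with median centring, 3 with the blank mean subtracted, 1 with all miRNAs tested and 1 to 46 with 1 array left out. The median difference of all members was 0.11 with no normalization and -0.084 with the blank mean subtracted, where that of all miRNAs was 0.092 and -0.031, and those of the members with less and with more G were 0.10 and 0.13, and -0.14 and -0.040. Among named members the sign turned for 6, none with an estimate beyond 0.13 in size. miR-7082-5p was 0.16 with quantile normalization, 0.059 with none, 0.050 with 200 added, 0.037 with the blank mean subtracted, 0.23 with array weights, 0.20 without both arrays and -0.22 to 0.25 with 1 array left out. miR-6944-5p was -0.022 with quantile normalization, -0.11 with the blank mean subtracted and -0.10 to 0.18 with 1 array left out. miR-6965-5p was 0.074 with quantile normalization, 0.080 with none and -0.19 to 0.10 with 1 array left out. miR-6970-5p was -0.50 with the blank mean subtracted, miR-7072-5p 0.050 with no normalization and -0.15 to 0.023 with 1 array left out, and miR-7045-5p -0.0075 to 0.22. The cause was not tested. Whether replicate numbers pair the arrays is not stated. Deviations of same-numbered arrays correlated at -0.21 to 0.27, with no other pairs set beside them, which cannot decide it. With the replicate block the lowest adjusted p of a member was 0.139, and 1 of the 2 hairpins with an arm difference remained called, miR-6942 having an adjusted p of 0.0513. Of all hairpins of the block tested, 0 were called with all miRNAs tested, 3 with quantile normalization and 0 to 3 with 1 array left out. With 1 array left out the change was 1.30 to 1.74 for miR-7056 and 1.19 to 1.57 for miR-6942. The median number of members detected per array, 42 for T-C cell against 32 for control cell, became 57 and 39 with 2 SD, 29 and 20 with 5 SD, 57 and 27 above the highest blank, and 36 and 29 with both spots required. Most members lie near the level of the blanks, and the size of a difference that could be seen there was not measured.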
